A study of Mus musculus with 28 samples.

Results

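Axl, Mertk and Tyro3 encode the TAM receptors, a family of receptor tyrosine kinases, and Gas6 and Pros1 encode their ligands. These 5 genes were taken by gene symbol from a table of 48587 genes, measured by RNA sequencing in microglia of the hippocampus of 28 male mice, with 1 library for each mouse. The mice were heterozygous 5xFAD animals, which carry human transgenes with familial Alzheimer mutations under the neuron-specific Thy-1 promoter, and their non-transgenic wild-type (WT) littermates on the C57BL/6J background. Each genotype was kept under 3 conditions: specific pathogen free (SPF), germ free (GF), or SPF with an antibiotic cocktail (ABX) of vancomycin, cefoxitin, gentamicin and metronidazole in the drinking water for 8 weeks, and all mice were 16 weeks old by their labels. WT mice numbered 5 under SPF, 4 under GF and 5 under ABX conditions, and 5xFAD mice 3, 5 and 6. The GF mice came from another animal facility than the rest, so germ-free housing and the facility cannot be told apart in any comparison of GF with SPF or ABX mice. Microglia were sorted as CD11b+ CD45low cells that were negative in a dump gate that included Ly6C and Ly6G, which is meant to remove monocytes and neutrophils, and no other cell population was sequenced.

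TAM receptors recognise phosphatidylserine, the lipid that dying cells expose on their surface, through GAS6 or protein S, the product of Pros1, which bridge the lipid and the receptor. Protein S engages MERTK and TYRO3, whereas AXL responds to GAS6. In macrophages and microglia the receptors drive the uptake of apoptotic material and restrain signalling from innate immune and interferon receptors. MERTK is known as the receptor of resting phagocytes and AXL as the one that is induced during inflammation, and Axl belongs to the genes known to be raised in microglia around amyloid plaques.

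Library depth ranged from 14441610 to 29977395 reads in genes, and no group had a median below 16787640 reads. Of the TAM genes, 4 passed the filter on low counts and were tested among 15298 genes, while Tyro3 did not pass it. Levels are given as CPM, normalised read counts brought to a common library total, with library sizes adjusted by the trimmed mean of M values (TMM). Sums of cell type markers are an exception: they are CPM on library totals without that adjustment. The TMM factors were 0.9177 to 0.9545 in GF 5xFAD and 1.013 to 1.067 in WT mice. On the adjusted scale the sums would thus be higher in GF 5xFAD and lower in WT mice. The defining microglial markers P2ry12, Tmem119, Cx3cr1, Sall1 and Csf1r were high in every mouse, with a summed level of 23600 to 40460 CPM, and this sum was lower in the 5xFAD groups (means of 25420 to 31240 CPM) than in the WT groups (means of 36190 to 37230 CPM). Mouse FAD_GF_201 is GF 5xFAD by its title and genotype label, but its free description names a GF WT library, and the Axl, Mertk and Gas6 differences reported for GF 5xFAD mice are given also without it. Mouse FAD_ABX_1151 of the ABX 5xFAD group and the 3 SPF 5xFAD mice carried neutrophil transcripts, with a summed level of 56.5 to 221 CPM for S100a8, S100a9, Ly6g, Mmp8, Retnlg, Camp and Ngp, against at most 0.774 CPM in each of the other 24 mice. These 4 libraries share 1 of the 3 numbering styles of the sample descriptions. Under SPF and ABX conditions WT and 5xFAD mice share no style, whereas GF mice of both genotypes share 1. GF and SPF 5xFAD mice also share none, nor do GF WT mice with SPF or ABX WT mice. ABX and SPF 5xFAD mice share only the style of mouse FAD_ABX_1151. Where the groups compared share no style, genotype or condition and whatever the style marks cannot be told apart.

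Shown here are the promoters of the 3 TAM genes with a call in any comparison, and whether their letters bear on the changes was not tested. Each is the 250 bases before the RefSeq transcription start on GRCm38.p6, 5′ to 3′ on the strand of the gene, with every GC box (GGGCGG on either strand, the element bound by Sp-family factors) in capitals.
Axl (chr7:25788734-25788983, minus strand): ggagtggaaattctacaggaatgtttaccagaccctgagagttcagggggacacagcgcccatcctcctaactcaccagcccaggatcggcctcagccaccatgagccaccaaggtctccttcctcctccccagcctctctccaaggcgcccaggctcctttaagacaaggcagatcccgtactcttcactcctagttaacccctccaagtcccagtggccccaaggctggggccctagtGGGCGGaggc
Mertk (chr2:128698665-128698914, plus strand): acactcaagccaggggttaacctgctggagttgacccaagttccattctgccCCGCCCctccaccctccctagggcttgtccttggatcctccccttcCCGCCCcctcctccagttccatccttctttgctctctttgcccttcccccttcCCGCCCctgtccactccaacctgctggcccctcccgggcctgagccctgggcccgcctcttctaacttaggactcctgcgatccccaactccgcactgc
Gas6 (chr8:13494536-13494785, minus strand): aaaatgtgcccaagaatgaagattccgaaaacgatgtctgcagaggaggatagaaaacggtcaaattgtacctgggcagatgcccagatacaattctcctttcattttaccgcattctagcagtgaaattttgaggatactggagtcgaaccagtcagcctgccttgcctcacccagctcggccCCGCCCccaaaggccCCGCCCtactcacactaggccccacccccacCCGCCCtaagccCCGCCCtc
The Axl promoter held 1 GC box, 10 bases before the start. Mertk held 3, Gas6 held 4, and the promoters of Tyro3 and Pros1, which are not printed, held 3 and 5. At least 1 GC box was present in 32.7% of 32851 mouse promoters of the same length. None of the 5 TAM promoters held the AP-1 motif TGANTCA, present in 6.75% of all promoters, or the TATA motif TATAAA, present in 12.4%, each searched on both strands. A match or its absence describes these letters in this window only.

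Axl lies on the minus strand of chromosome 7 at 25757273 to 25788705 (GRCm38, ENSMUSG00000002602.16) and encodes a protein of 888 residues in 20 exons. Its transcript was 25.7- to 33.7-fold more abundant in 5xFAD microglia than in WT microglia under all 3 conditions. In SPF WT mice Axl was at 7.75, 28.4, 15.7, 26.2 and 14.7 CPM, and in SPF 5xFAD mice at 510, 541 and 518 CPM. In GF WT mice it was at 30.9, 28.5, 46.1 and 22.2 CPM, and in GF 5xFAD mice at 952, 944, 783, 885 and 545 CPM. In ABX WT mice it was at 14.2, 9.72, 15.6, 22 and 14.6 CPM, and in ABX 5xFAD mice at 411 to 763 CPM with a median of 479 CPM. No 5xFAD mouse overlapped with any WT mouse, and the lowest 5xFAD value (411 CPM) stood far above the highest WT value (46.1 CPM).

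The difference between genotypes was 4.81 ± 0.295 (log2, SE; 28.1-fold) in SPF mice, 4.68 ± 0.308 (25.7-fold) in GF mice and 5.08 ± 0.284 (33.7-fold) in ABX mice. In the edgeR quasi-likelihood fit over all mice the adjusted p-values were 1.31e-12, 4.66e-12 and 1.72e-13. Axl ranked 5, 9 and 3 by p-value among all genes tested in these comparisons. The size of the genotype effect did not differ detectably between conditions: it differed by -0.13 in GF from that in SPF mice (95% interval -0.91 to 0.65), and was larger by 0.26 in ABX than in SPF mice (-0.49 to 1.02) and larger by 0.39 in ABX than in GF mice (-0.33 to 1.11). The intervals are wide, and the data do not exclude a difference of a size inside them. Without mouse FAD_GF_201 the Axl difference in GF mice was 4.81 (adjusted p = 1.76e-12 in edgeR), and its difference from the effect in SPF mice was -0.01 and from that in ABX mice 0.27.

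Of the 4 TAM genes tested, 1 (Axl) rose in SPF 5xFAD mice, where 4.57% of all genes passed the threshold, 3.73% higher and 0.837% lower. In GF 5xFAD mice 1 rose (Axl) and 1 fell (Mertk), beside 15.6% of all genes, 9.43% higher and 6.2% lower. In ABX 5xFAD mice 2 rose (Axl and Gas6), beside 14.4% of all genes, 9.45% higher and 4.98% lower. With library sizes that were not scaled by TMM, the higher share among called genes dropped from 81.7% to 71.3% in SPF, from 60.3% to 36.6% in GF and from 65.5% to 46.9% in ABX mice, and the median of all genes in GF 5xFAD against GF WT mice moved from -0.03 to -0.15 (log2). No TAM gene that was called under TMM scaling turned its direction under that scaling. Over all 6 groups the F test passed Axl (adjusted p = 3.53e-17), Gas6 (0.00036) and, barely, Mertk (0.0498, lost in 14 of 28 omissions of 1 mouse and without the filter on low counts), but not Pros1 (0.968), beside 33.2% of all genes.

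**Figure D1:**
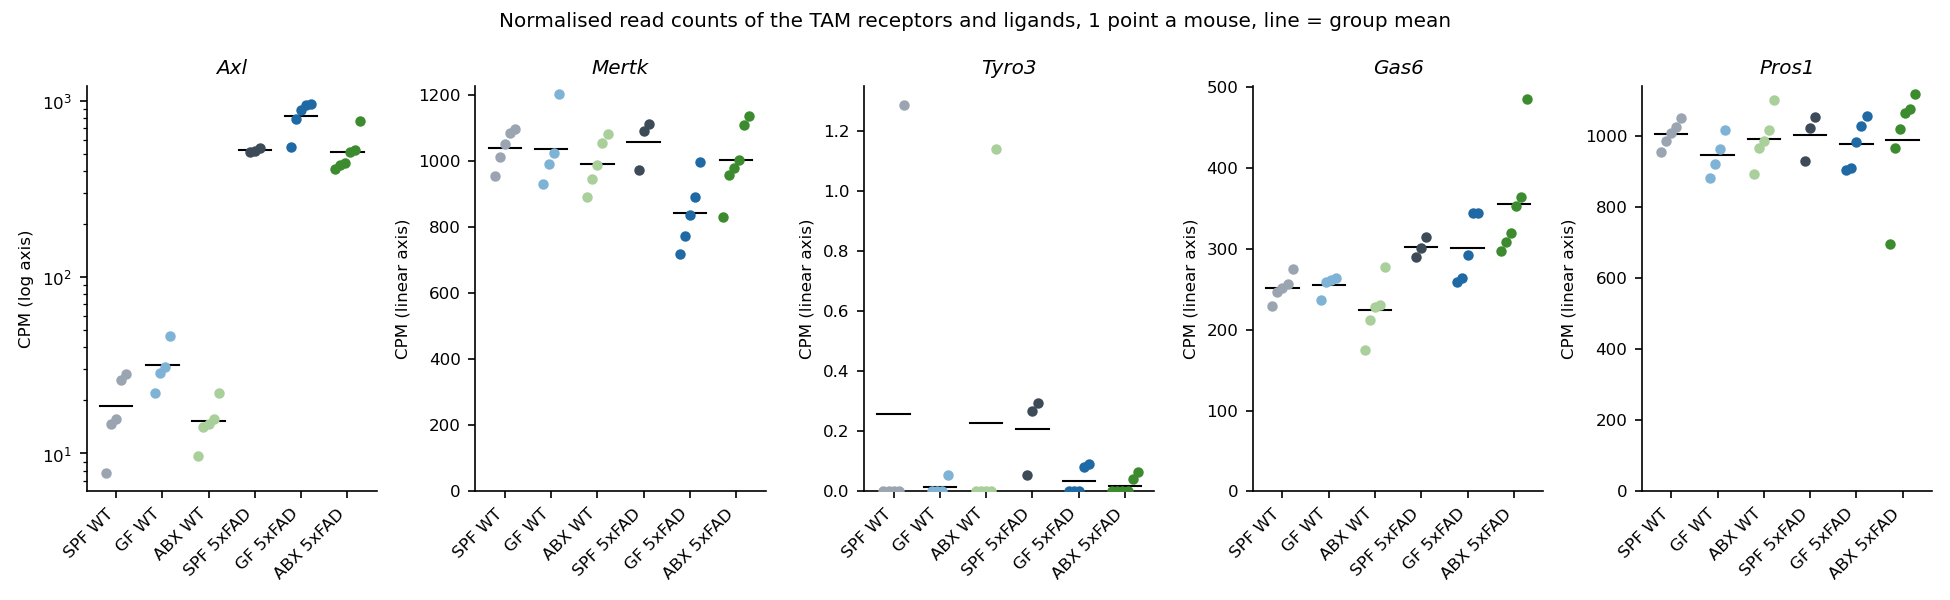
Each panel plots 1 TAM gene in CPM (vertical axis, log scale for Axl and linear for the others) in the 6 groups (horizontal axis), with 1 point for each mouse and a line at the group mean. Axl separates all 5xFAD mice (411 CPM or more) from all WT mice (46.1 CPM or less), Mertk is lowest in GF 5xFAD mice, Tyro3 stays near 0, Gas6 is highest in ABX 5xFAD mice and Pros1 is level.

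Within the 5xFAD genotype, Axl was highest in the GF mice. Their mean of 822 ± 169 CPM (SD, n = 5) compared with 523 ± 15.9 CPM in SPF (n = 3) and 515 ± 130 CPM in ABX 5xFAD mice (n = 6). Every GF 5xFAD mouse lay above every SPF 5xFAD mouse, but mouse FAD_GF_201 was only just above them, at 545 CPM against 541 CPM. The difference from SPF was 0.65 ± 0.280 (log2, 1.57-fold) and did not pass the threshold in the edgeR fit (adjusted p = 0.127), in which 12.8% of all genes did, 6.97% higher and 5.86% lower. This call depended on the analysis: Axl passed with the limma pipeline that the study used (0.63, adjusted p = 0.00454) and when only these groups were fitted in edgeR (0.63, adjusted p = 0.0245), and missed it in the other 35 analyses, among them the one without mouse FAD_GF_201 (0.76, adjusted p = 0.0684). The difference from ABX was 0.68 ± 0.227 on the log2 scale and also missed the threshold (adjusted p = 0.0535), where 10.6% of all genes passed. The ranges overlapped through ABX mouse FAD_ABX_1460 at 763 CPM and GF mouse FAD_GF_201 at 545 CPM. The next values were 524 CPM in ABX and 783 CPM in GF 5xFAD mice, so the overlap needs both mice. This last comparison lay at the threshold, and Axl passed it in 9 of 37 other analyses, over all of which the difference was 0.595 to 0.822 and the adjusted p 0.00998 to 0.124. The 9 were the limma pipeline of the study (adjusted p = 0.00998), at least 10 counts in every library (0.0299 in edgeR), length offsets (0.0335), no filter on low counts (0.0428), and the omission of FAD_GF_201 (0.79, adjusted p = 0.0227), FAD_ABX_1460 (0.82, adjusted p = 0.0242), WT_SPF_912 (adjusted p = 0.0253), WT_SPF_925 or WT_GF_230. Axl in ABX and SPF 5xFAD mice differed by -0.02 ± 0.265, an interval of -0.57 to 0.52.

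Among WT mice Axl was low throughout, and again highest in the GF group. The mean was 31.9 ± 10.2 CPM in GF (n = 4), 18.6 ± 8.58 CPM in SPF (n = 5) and 15.2 ± 4.41 CPM in ABX mice (n = 5). GF and ABX WT mice did not overlap, and Axl was higher in GF mice by 1.07 ± 0.268 (log2, 2.10-fold, adjusted p = 0.0158 in edgeR), in a comparison where 6.88% of all genes passed. That call was lost without GF WT mouse WT_GF_230, the highest of its group (0.83, adjusted p = 0.0862). Between GF and SPF WT mice the difference was 0.78 ± 0.265 with overlapping ranges (adjusted p = 0.119), where 1.62% of all genes passed. In ABX against SPF WT mice it was -0.29 ± 0.257. The summed level of the border-associated macrophage markers Mrc1, Lyve1, Cd163, Pf4, Cbr2, F13a1 and Ms4a7 was 10.7 to 43.9 CPM in GF WT mice, against 3.48 to 8.15 CPM in SPF WT and 3.80 to 5.90 CPM in ABX WT mice, so it moved with Axl in this genotype, and its part in the result was not tested. Among 5xFAD mice the sum was 16.1 to 29.2 CPM under SPF, 10.0 to 81.0 CPM under GF and 34.0 to 253 CPM under ABX conditions. In bulk libraries such as these, more cells with a transcript and more transcript in each cell cannot be told apart.

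Mertk, on the plus strand of chromosome 2 at 128698956 to 128802894 (ENSMUSG00000014361.5), encodes the receptor that dominates in homeostatic microglia and has 994 residues in 19 exons. It was abundant in all mice and fell slightly in GF 5xFAD mice. Levels were 955, 1096, 1051, 1011 and 1084 CPM in SPF WT, 1203, 931, 991 and 1023 CPM in GF WT and 946, 1056, 892, 988 and 1081 CPM in ABX WT mice. SPF 5xFAD mice had 974, 1090 and 1111 CPM, GF 5xFAD mice 774, 838, 719, 892 and 996 CPM, and ABX 5xFAD mice 830 to 1137 CPM with a median of 990 CPM. Of the 5 GF 5xFAD mice, 4 lay below every GF WT and every SPF 5xFAD mouse, and mouse FAD_GF_201 lay inside both ranges. The summed level of the 5 microglial markers, on unadjusted library totals, was 23600 to 24670 CPM in those 4 mice and 30660 CPM in mouse FAD_GF_201. It was 34420 to 39050 CPM in GF WT and 29800 to 30460 CPM in SPF 5xFAD mice. The mean sum also fell from 37230 CPM in SPF WT to 30060 CPM in SPF 5xFAD mice. It fell from 36710 CPM in ABX WT to 31240 CPM in ABX 5xFAD mice. Mertk differed there by only 0.03 and 0.01 (log2). The part of this sum in the Mertk result was not tested.

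Mertk was lower in GF 5xFAD than in GF WT mice by -0.30 ± 0.0933 (log2, 0.814-fold, adjusted p = 0.0278) and lower than in SPF 5xFAD mice by -0.33 ± 0.101 (0.797-fold, adjusted p = 0.031) in the edgeR fit. Without mouse FAD_GF_201 these differences were -0.35 (adjusted p = 0.00644) and -0.40 (adjusted p = 0.00738). Both calls were close to the threshold, since the first was lost without WT_GF_199, WT_GF_231, FAD_GF_181, FAD_GF_182 or FAD_GF_184 (adjusted p up to 0.155 in edgeR) and the second without FAD_SPF_1146, FAD_SPF_1148, FAD_GF_181 or FAD_GF_184 (up to 0.13). Both were also lost when only the groups compared were fitted (-0.31, adjusted p = 0.0582, and -0.35, adjusted p = 0.0554). GF against ABX 5xFAD mice differed by -0.25 ± 0.0848 (adjusted p = 0.0569). Mertk passed this comparison in 14 of 37 other analyses, over all of which the adjusted p was 0.0128 to 0.15. The 14 were RLE factors (0.046), unscaled library sizes (0.0131), at least 10 counts in every library (0.0358), DESeq2 (0.0284), limma (0.0442), 26 mice (0.0475, without FAD_ABX_1151 and FAD_ABX_1482) and the omission of FAD_GF_201 (-0.32, adjusted p = 0.0128 in edgeR) or of 1 of 7 other mice. The genotype difference was 0.03 ± 0.102 in SPF and 0.01 ± 0.0845 in ABX mice, with intervals of -0.18 to 0.23 and -0.16 to 0.19. The effect in GF minus that in SPF mice was -0.32 ± 0.138 and did not pass (adjusted p = 0.523), nor did the effect in ABX minus that in GF mice (0.31 ± 0.126, adjusted p = 0.203), so a Mertk response that depends on condition was not shown. Without mouse FAD_GF_201 these were -0.39 (adjusted p = 0.254 in edgeR) and 0.37 (adjusted p = 0.0827). ABX and SPF 5xFAD mice differed by -0.08 ± 0.0984. The comparisons between WT groups and the effect in ABX minus that in SPF mice lay between -0.07 and 0.06.

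The annotation has 2 genes that overlap Mertk, an antisense transcript (Gm14011) and a small nucleolar RNA (Gm23172), and the library kit does not mark strand. Their own counts were at most 109 and 65 reads in a library, against at least 12739 for Mertk. The neighbour of Gas6 on the opposite strand, Tmem255b, had at most 11 reads, against at least 2943 for Gas6.

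Tyro3, on chromosome 2 at 119797733 to 119818104 (ENSMUSG00000027298.17), is the family member best known from neurons and oligodendrocytes. It had no read in 18 of 28 mice and 63 reads in all libraries together. Of these, 23 came from SPF WT mouse WT_SPF_926 (1.29 CPM) and 21 from ABX WT mouse WT_ABX_923 (1.14 CPM). The SPF 5xFAD mice had 1, 6 and 5 reads, and the remaining libraries at most 2. A count of 0 allows up to 3 reads, or 0.208 CPM on the unadjusted total of the shallowest library, a limit that covers counting error only. No group difference was detectable at this level. The neuronal markers Rbfox3, Syt1, Snap25, Tubb3, Map2, Camk2a, Slc17a7 and Gad1 summed to 7.38 CPM in mouse WT_SPF_926 and 10.4 CPM in mouse WT_ABX_923, within the 0.792 to 18.8 CPM of all mice.

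Because Axl rose and Mertk did not, the balance between the receptors differed by genotype. Levels of different genes are compared here as CPM per kilobase of summed exon length. Axl stood at 0.699 to 2.23% of the Mertk level in SPF WT mice, 1.87 to 4.01% in GF WT mice and 0.793 to 1.92% in ABX WT mice. In 5xFAD mice it reached 45.1, 42.7 and 40.1% under SPF, 106, 97.1, 93.7, 85.5 and 47.1% under GF, and 33.6 to 59.3% with a median of 41.6% under ABX conditions. Thus 4 of 5 GF 5xFAD mice had Axl at 85.5% of Mertk or more, whereas no SPF or ABX 5xFAD mouse exceeded 59.3%. In exact two-sided permutation tests, adjusted over 18 tests of the receptor and ligand ratios, GF and ABX 5xFAD mice differed (p = 0.0108, adjusted p = 0.0487), and GF and SPF 5xFAD mice did not pass (p = 0.0357, adjusted p = 0.0643, with 0.0179 as the smallest p that 3 against 5 mice can give). The differences between genotypes had the smallest p their group sizes allow, namely 0.0179, 0.00794 and 0.00216 under SPF, GF and ABX conditions, and the adjusted p of the exact test was 0.0536, 0.0476 and 0.039. Without mouse FAD_GF_201, an analysis chosen after the data were seen, the adjusted p of the exact test of Axl against Mertk in GF 5xFAD mice was 0.039 against ABX 5xFAD, 0.0571 against SPF 5xFAD and 0.0571 against GF WT mice, the last of which thereby missed the threshold, with 0.0286 as the smallest p that 4 against 4 mice can give.

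**Figure D2:**
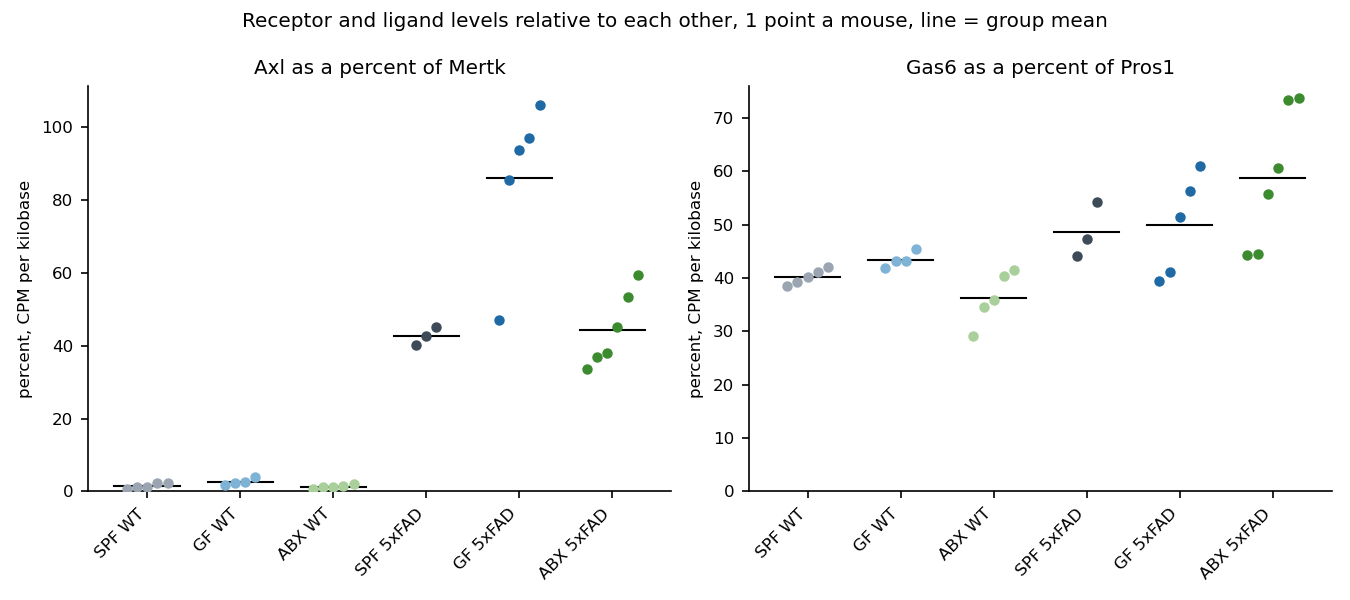
The left panel plots Axl as a percent of Mertk and the right panel Gas6 as a percent of Pros1, both per kilobase of exon, for each mouse (points) with the group mean (line) in the 6 groups. Axl is at most 4.01% of Mertk in WT mice and between 33.6 and 106% in 5xFAD mice, while Gas6 lies between 29.1 and 73.7% of Pros1 in all mice.

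Gas6, on the minus strand of chromosome 8 at 13465374 to 13494490 (ENSMUSG00000031451.6), encodes the vitamin K-dependent ligand of AXL, with 674 residues in 15 exons. It was moderately expressed by WT microglia and rose in ABX 5xFAD mice. WT levels were 228.8, 275, 252, 257 and 247 CPM under SPF, 265, 237, 260 and 261 CPM under GF and 228, 212, 175, 230.8 and 277 CPM under ABX conditions. Levels were 290, 315 and 301 CPM in SPF 5xFAD mice, 345, 344, 292, 264 and 259 CPM in GF 5xFAD mice, and 298 to 486 CPM with a median of 337 CPM in ABX 5xFAD mice. The SPF and ABX groups did not overlap between genotypes, whereas GF 5xFAD mice FAD_GF_185 and FAD_GF_201 lay within the GF WT range.

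The increase of Gas6 was 0.66 ± 0.112 (log2, 1.58-fold) in ABX mice and passed the threshold (adjusted p = 9.73e-05 in edgeR). It was 0.26 ± 0.132 (1.20-fold, adjusted p = 0.377) in SPF and 0.23 ± 0.123 (1.18-fold, adjusted p = 0.215) in GF mice, neither of which passed, and 0.29 (adjusted p = 0.11) in GF mice without mouse FAD_GF_201. The effect in ABX mice exceeded that in SPF mice by 0.40 ± 0.174 (adjusted p = 0.726 in edgeR) and that in GF mice by 0.43 ± 0.165 (adjusted p = 0.181, or 0.231 without mouse FAD_GF_201), so a difference between conditions was not shown. ABX mouse FAD_ABX_1460 was the highest of all, at 486 CPM, and without it the increase was 0.55 (adjusted p = 0.000254). With the limma pipeline that weights samples by quality, the SPF difference also passed (0.26, adjusted p = 0.0427), as it did when only the SPF groups were fitted in edgeR (0.27, adjusted p = 0.0415).

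The ABX 5xFAD group also had the highest mean level of border-associated macrophage transcripts, although mouse FAD_ABX_1151 lay below 2 GF 5xFAD and 2 GF WT mice. The sum of the 7 markers was 34.0, 253, 196, 238, 87.5 and 117 CPM in mice FAD_ABX_1151, FAD_ABX_1452, FAD_ABX_1453, FAD_ABX_1455, FAD_ABX_1460 and FAD_ABX_1482, against 10.0 to 81.0 CPM in GF 5xFAD, 16.1 to 29.2 CPM in SPF 5xFAD and 3.80 to 5.90 CPM in ABX WT mice. Each of the 7 was detected in every 5xFAD group and in GF WT mice, and 5 were detected in SPF WT and in ABX WT mice. The part of this sum in the Gas6 result was not tested. In the SPF 5xFAD mice, neutrophil transcripts stood beside Gas6 levels of 290 to 315 CPM although the dump gate held anti-Ly6G, and their part was likewise not tested. The monocyte markers Ly6c2, Ccr2, Plac8, Chil3 and Vcan also moved with genotype: they summed to 16.0 to 39.0 CPM in SPF 5xFAD against 6.76 to 8.57 CPM in SPF WT mice and to 14.3 to 51.9 CPM in ABX 5xFAD against 3.75 to 9.32 CPM in ABX WT mice, with overlapping ranges in GF mice (6.02 to 24.9 and 3.72 to 16.9 CPM). Their part in the differences of Gas6, Axl or the phosphatidylserine receptors was not tested.

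Pros1, on the plus strand of chromosome 16 at 62854307 to 62929346 (ENSMUSG00000022912.8), encodes protein S, an anticoagulant cofactor and ligand of MERTK and TYRO3, with 675 residues in 15 exons. Its group means per kilobase, 231.3 to 246 CPM, were close to those of Mertk, 195 to 244 CPM, and its level was nearly constant. The group means lay between 946 CPM in GF WT mice and 1005 CPM in SPF WT mice. All mice but 1 were at 882 to 1119 CPM, and ABX 5xFAD mouse FAD_ABX_1482 was at 696 CPM. Over all 12 contrasts the difference lay between -0.09 and 0.05 (log2), and the smallest adjusted p in edgeR was 0.706. For the genotype comparisons the 95% intervals were -0.21 to 0.20 in SPF, -0.14 to 0.24 in GF and -0.18 to 0.17 in ABX mice.

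Per kilobase, Gas6 stood at 38.5 to 42.0% of Pros1 in SPF WT mice, 41.8 to 45.5% in GF WT mice and 29.1 to 41.4% in ABX WT mice. In 5xFAD mice the share was 44.2 to 54.3% under SPF, 39.4 to 61.0% under GF and 44.3 to 73.7% under ABX conditions. Pros1 was therefore the more abundant ligand transcript in all 28 mice. The ratio was higher in ABX 5xFAD than in ABX WT mice (exact two-sided permutation test, p = 0.00649, adjusted p = 0.0476). Under SPF the genotypes did not overlap, at the smallest p that 3 against 5 mice can give in the exact test (0.0179, adjusted p = 0.0536), and under GF conditions the exact p was 0.238 (adjusted p = 0.314). In the ABX 5xFAD group mouse FAD_ABX_1482 had one of the highest ratios (73.7%) through its low Pros1.

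No TAM gene passed the threshold in the remaining comparisons, of which several called no gene at all. ABX against SPF 5xFAD mice gave 0% called in edgeR, with 1085 genes at an unadjusted p under 0.05, 8 genes called by DESeq2 and 134 by limma. ABX against SPF WT mice gave 0%, with 687 genes at an unadjusted p under 0.05, 2 called by DESeq2 and 0 by limma. The difference of the genotype effects gave 0% for GF minus SPF (1304 genes unadjusted, 25 by DESeq2, 116 by limma) and 0% for ABX minus SPF (1032 unadjusted, 1 by DESeq2, 14 by limma) in edgeR. For ABX minus GF 1.76% of all genes passed, none of them a TAM gene.

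**Figure D3:**
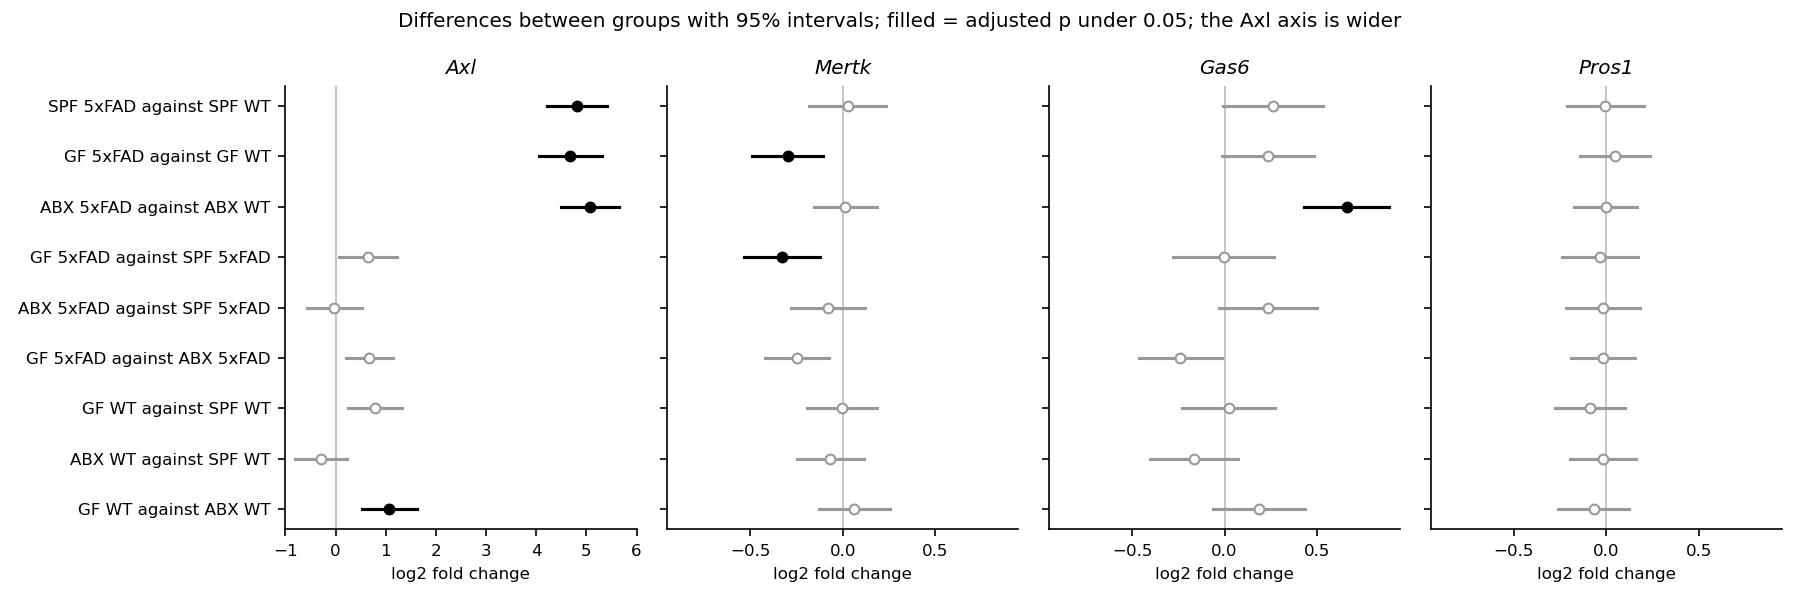
For each tested TAM gene the plot gives the log2 fold change (horizontal axis) with its 95% interval in 9 comparisons of 2 groups (vertical axis), filled where the adjusted p is under the threshold. Axl differs between genotypes by 4.68 to 5.08 in all conditions, Mertk is lower in GF 5xFAD mice in 2 comparisons, Gas6 is higher by 0.66 in ABX 5xFAD mice and Pros1 has no filled point.

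Lpl, Chst2 and Apoe had the pattern most like that of Axl over the 28 mice. Likeness was the root mean square difference of log2 CPM after each gene was centred on its own mean, over the 9050 genes with a mean of at least 3 log2 CPM. It was 0.73 for Lpl, 0.75 for Chst2 and 0.78 for Apoe, against a median of 2.58 over all these genes. Lpl, the lipoprotein lipase, went from 37.7 CPM in SPF WT to 595 CPM in SPF 5xFAD and 845 CPM in GF 5xFAD mice on average. Apoe, the main apolipoprotein of the brain, had means of 404, 4142 and 8731 CPM in these groups, and Chst2, a sulfotransferase that acts on glycans, means of 4.99, 49.2 and 104 CPM. Each rose in 5xFAD mice under all conditions, by 3.89 to 3.99 (log2) for Lpl, 3.30 to 3.68 for Chst2 and 3.36 to 3.67 for Apoe, against 4.68 to 5.08 for Axl. In GF against SPF 5xFAD mice Apoe and Chst2 were higher by 1.08 each (adjusted p = 0.00731 and 0.00877 in edgeR). Lpl was at 0.51 and did not pass. Axl was at 0.65 there and passed only in the limma pipeline and the fit of these groups alone, and whether the change of Apoe or Chst2 differed from that of Axl was not tested.

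**Figure D4:**
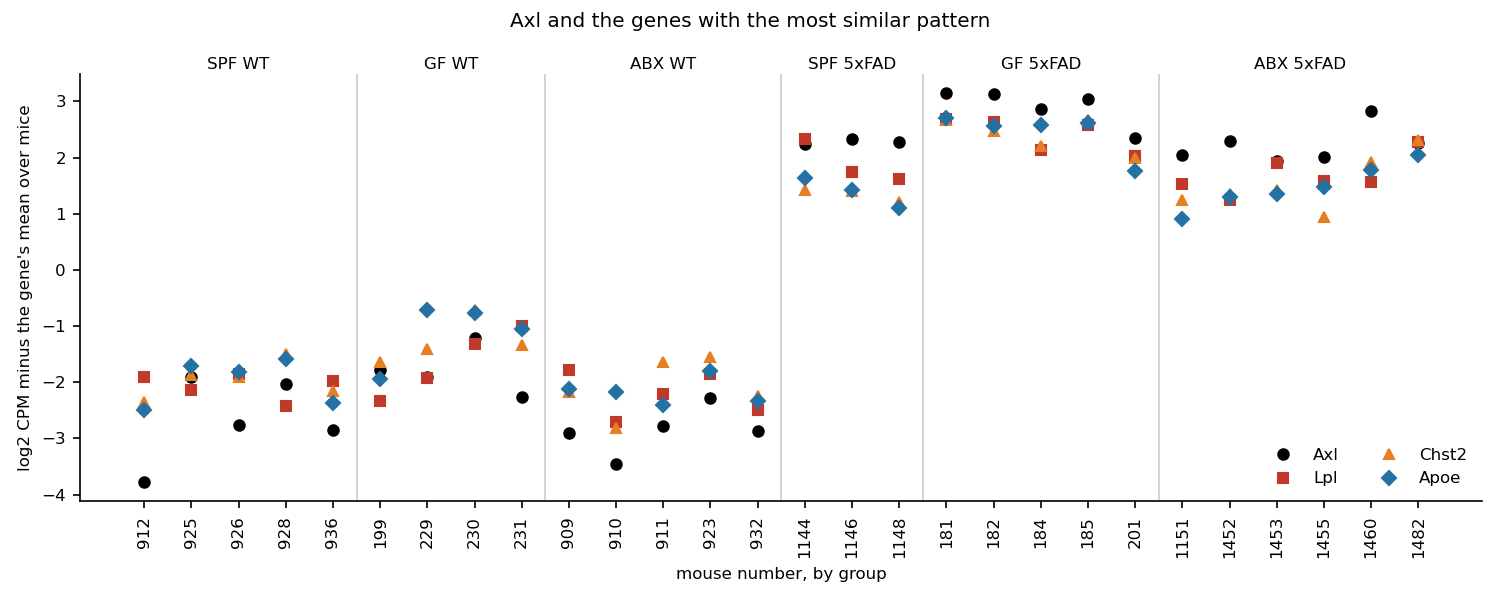
Log2 CPM minus the mean of the gene over all mice (vertical axis) is plotted for Axl, Lpl, Chst2 and Apoe in each mouse (horizontal axis, by group). All 4 genes lie below 0 in every WT mouse and above 0 in every 5xFAD mouse.

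For Mertk the most similar genes were Dtx4, a ubiquitin ligase of the Notch pathway (0.106), Nckap1l, the HEM1 subunit of the actin-regulating WAVE complex (0.107), and Golm1, a Golgi membrane protein (0.107), against a median of 0.32. Their means in GF 5xFAD mice, 350, 751 and 1660 CPM, were the lowest of the 6 groups for each. For Gas6 they were Csf3r, the receptor of granulocyte colony-stimulating factor (0.143), Hvcn1, a voltage-gated proton channel (0.152), and Myo1f, an unconventional myosin (0.164), against a median of 0.397. All of these passed the threshold in ABX 5xFAD mice, by 0.61, 0.39 and 0.63 (log2). Hvcn1 also passed in GF 5xFAD against GF WT mice (0.377, adjusted p = 0.00764 in edgeR). Csf3r also passed in SPF 5xFAD against SPF WT mice (0.307, adjusted p = 0.0484), a call that 13 of 37 other analyses lost. Axl, with a standard deviation of 2.55 log2 CPM over mice, varied far more than Mertk (0.168) and Gas6 (0.282), so the 3 sets of distances are on different ranges. A gene that did not vary at all would stand at these values, 2.55 from Axl, 0.168 from Mertk and 0.282 from Gas6.

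The wider pathway was followed in 8 lists of 64 genes, of which 54 were tested. In SPF mice 5 of the 54 rose and 0 fell with the genotype (9.26%, beside 4.57% of all genes), in GF mice 5 rose and 7 fell (22.2%, beside 15.6%), and in ABX mice 12 rose and 3 fell (27.8%, beside 14.4%). The median log2 fold changes of the tested genes were 0.08, -0.03 and 0.13, beside -0.03, -0.03 and -0.01 for all genes. Between GF and SPF 5xFAD mice 5 rose and 5 fell (18.5%, beside 12.8% of all genes). Without mouse FAD_GF_201 the named pathway genes kept all 17 calls that involve GF 5xFAD mice in these comparisons. Between GF and SPF 5xFAD mice the neutrophil marker sum (at most 0.0495 against 56.5 to 221 CPM) and the mean microglial marker sum (25420 against 30060 CPM) differed as well, and their part in the pathway calls was not tested.

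Among 13 tested receptors and bridging proteins for phosphatidylserine outside the family, 3 rose in SPF, 2 in GF and 6 in ABX 5xFAD mice, and 0, 2 and 1 fell (23.1, 30.8 and 53.8% of the list, beside 4.57, 15.6 and 14.4% of all genes). The macrophage marker sum given with Gas6 had its highest mean in the ABX 5xFAD group, and their part in these counts was not tested. Cd300lf, an immunoreceptor that binds phosphatidylserine, rose under all conditions by 2.99 ± 0.376, 3.59 ± 0.393 and 3.00 ± 0.346 (log2) in SPF, GF and ABX mice, from WT means of 1.76 to 1.84 CPM to 5xFAD means of 14.0 to 22.5 CPM. Mfge8, a secreted bridge between phosphatidylserine and integrins, rose by 0.76, 1.16 and 0.95, and was higher in GF 5xFAD mice than under SPF by 0.89 ± 0.160 (adjusted p = 0.00164 in edgeR). Its level was 70.2 to 95.5 CPM in GF and 39.2 to 54.5 CPM in SPF 5xFAD mice, with no overlap. Cd36, a scavenger receptor, rose in SPF (3.54) and ABX mice (5.27) from WT levels that included 0, and was at 1.86 ± 0.844 in GF mice (adjusted p = 0.142). Cd300a, an inhibitory receptor, fell by 0.28 in GF mice and by 0.24 in ABX mice on the log2 scale and was at -0.28 ± 0.0988 in SPF mice (adjusted p = 0.128). The integrin subunit Itgav, a partner in MFGE8 binding, was lower in GF 5xFAD mice than under SPF, by -1.15 ± 0.223, at 108 to 150 CPM against 244 to 321 CPM.

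Galectin-3, encoded by Lgals3 and described as a further ligand of MERTK, rose by 1.69, 1.25 and 1.56 (log2) in SPF, GF and ABX 5xFAD mice. Its levels stayed low, with group means of 4.37 to 9.02 CPM in WT and 13.2 to 21.4 CPM in 5xFAD mice. Of the other listed TAM ligands, Tub was tested and did not pass between genotypes, and Tulp1 was too low to test. The list of the vitamin K cycle, which the ligands need for their carboxylation, and of ligand processing had 4 genes, of which 1 rose under each condition (25%, beside 4.57, 15.6 and 14.4% of all genes). This was Vkorc1 in SPF and GF mice and the processing protease Furin in ABX mice, where no vitamin K cycle gene passed. Vkorc1, the epoxide reductase that regenerates vitamin K, rose by 0.72 ± 0.143 in SPF and 1.19 ± 0.137 in GF mice and was at 0.35 ± 0.122 in ABX mice (adjusted p = 0.0524 in edgeR). It was higher in GF 5xFAD mice than under SPF by 0.58 ± 0.147 (adjusted p = 0.0108), at 48.6 to 67.4 CPM against 35.5 to 44.8 CPM.

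Neither of the proteases that release TAM ectodomains, Adam10 and Adam17, passed the threshold between genotypes. Adam10 was lower in GF 5xFAD mice than under SPF by -0.58 ± 0.146 (adjusted p = 0.00957). Of 7 scramblases and flippases, which move phosphatidylserine across the membrane, 0 passed in SPF and ABX mice and 1 fell in GF mice (14.3%, near the 15.6% of all genes). The flippase gene Atp11b was lower in GF 5xFAD mice than under SPF by -0.88 ± 0.167 (adjusted p = 0.00194). In the engulfment machinery downstream of the receptors, 0 of 12 passed in SPF mice, 3 fell in GF mice, and 1 rose and 2 fell in ABX mice (0, 25 and 25%, beside 4.57, 15.6 and 14.4% of all genes). Elmo1, which activates the GTPase Rac together with DOCK proteins, fell by 0.53 in GF and by 0.31 in ABX 5xFAD mice on the log2 scale and was at -0.22 ± 0.120 in SPF mice.

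In the list of TAM feedback on interferon receptor signalling, 0 of 7 tested genes passed in SPF mice, 1 rose and 1 fell in GF mice, and 1 rose in ABX mice (0, 28.6 and 14.3%, beside 4.57, 15.6 and 14.4% of all genes, so the last is near the background). Ifnar2, a subunit of the type I interferon receptor, rose in GF mice by 0.52 ± 0.0766 and was higher in GF 5xFAD mice than under SPF by 0.29 ± 0.0833 (adjusted p = 0.0207). Socs3, a feedback inhibitor of cytokine signalling, was higher in GF 5xFAD mice than under SPF by 0.65 ± 0.198 (adjusted p = 0.0278). Of 7 nuclear receptors that act on Mertk or Axl in macrophages, 0 passed in SPF and GF mice and 2 rose in ABX mice (28.6%, beside 14.4% of all genes). Nr1h2, the liver X receptor beta, rose by 0.51 in ABX mice and was higher in GF 5xFAD mice than under SPF by 0.56 ± 0.166 (adjusted p = 0.0261). The glucocorticoid receptor gene Nr3c1 was lower in that comparison by -0.47 ± 0.150 (adjusted p = 0.0366).

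The genes called in a single genotype comparison fell outside the naming rule, and these are named after their values were seen. In ABX mice Itgb5 (0.51), Lrp1 (0.33), Furin (0.43), Dock2 (0.38) and Tyk2 (0.59) rose and Crk (-0.43) fell. Timd4 and Pparg had no read in any ABX WT mouse and means of 2.17 and 0.363 CPM in ABX 5xFAD mice. In GF mice Stab1 (-0.84), Ano6 (-0.47), Crkl (-0.36), Vav1 (-0.22) and Jak1 (-0.38) fell. Of these, Jak1 (adjusted p = 0.0498 in edgeR), Lrp1 (0.0498), Crk (0.0439), Crkl (0.0392) and Ano6 (0.0387) lay close to the threshold. Several calls of the rule's genes did so too: of 37 other analyses, 9 and 12 lost Cd300a in GF and ABX mice, 8 lost Elmo1 in ABX mice and 6 lost Lgals3 in GF mice. Between GF and SPF 5xFAD mice 9 lost Socs3, 7 each lost Ifnar2 and Nr3c1 and 6 lost Nr1h2, and of 36 analyses 7 lost Cd36 in SPF mice.

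**Figure D5:**
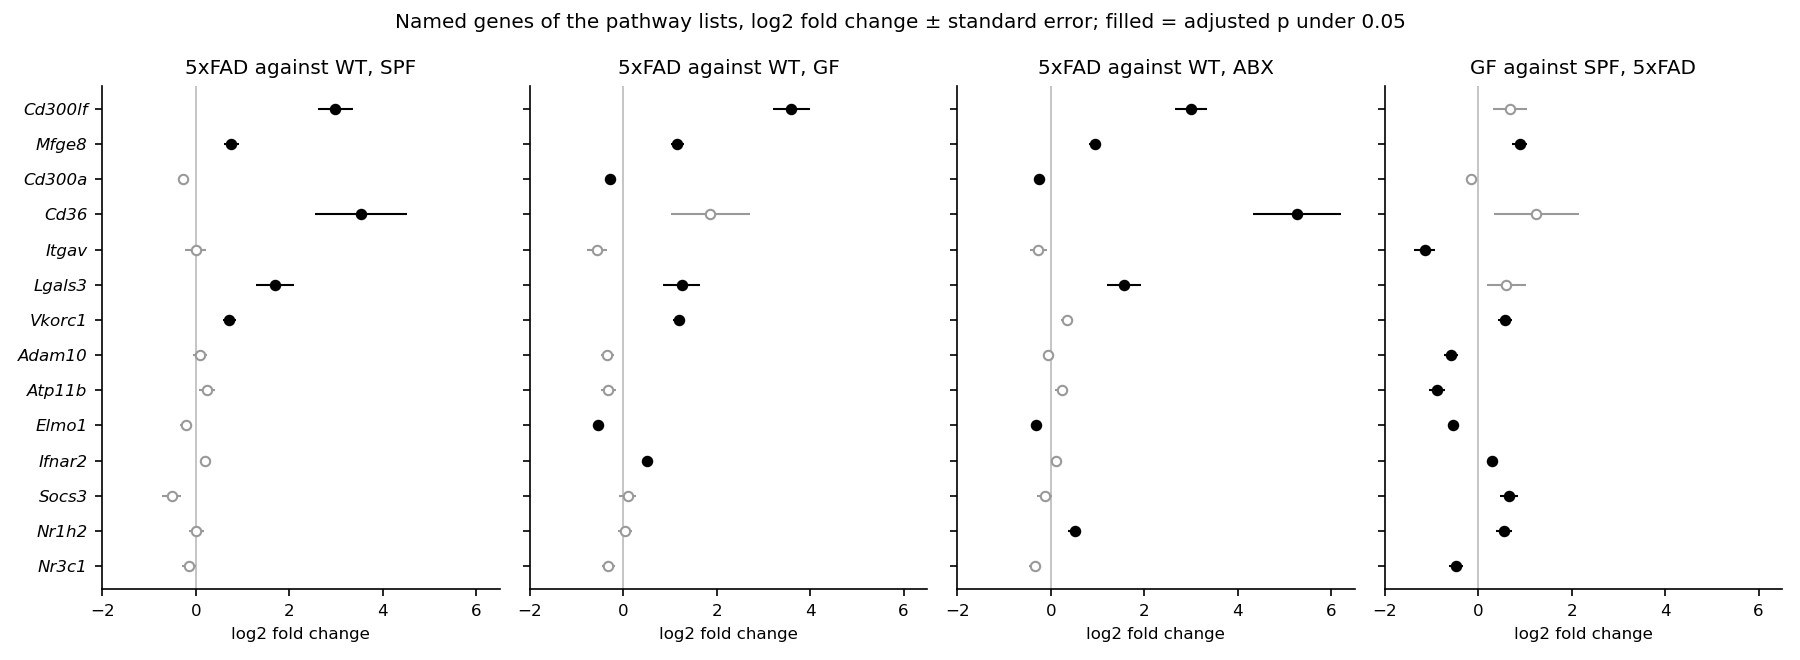
Log2 fold change (horizontal axis, ± standard error) of the named pathway genes (vertical axis) in 5xFAD against WT mice under SPF, GF and ABX conditions and in GF against SPF 5xFAD mice, filled where the adjusted p is under the threshold. Cd300lf, Mfge8 and Lgals3 are filled in all 3 genotype panels, and in the panel at the right Mfge8, Vkorc1, Ifnar2, Socs3 and Nr1h2 lie above 0 and Itgav, Adam10, Atp11b, Elmo1 and Nr3c1 below it.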

How the data were processed

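RNA of sorted hippocampal microglia was amplified with a SMARTer kit, made into Nextera XT libraries, which do not mark strand, and sequenced as single reads. The authors aligned reads with STAR 2.7.2 and deposited raw counts per gene from featureCounts 1.6.2 on GENCODE annotation of GRCm38. The build named in the sample labels differs, and the deposited coordinates of the TAM genes matched GRCm38. The 92 spike-in rows were left out. Groups came from the sample titles, and mice were separate animals. The descriptions use 3 numbering styles that follow the groups in part, and whether they mark batches is not stated. GF 5xFAD and GF WT mice share 1 style. Under SPF and ABX conditions the genotypes share no style, so genotype and style cannot be told apart there, and the 4 libraries with neutrophil transcripts make up 1 style. GF 5xFAD mice share none with SPF 5xFAD mice, nor GF WT mice with SPF or ABX WT mice. Condition and style cannot be told apart in those comparisons.

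The deposited counts were filtered (filterByExpr, minimum count of 10, minimum total of 15), scaled by TMM and tested with edgeR 4.0.16 (R 4.3.3) in a quasi-likelihood fit with 1 term for each of 6 groups. Benjamini-Hochberg adjustment ran over all 15298 genes tested, with a threshold of 0.05. Alternatives were RLE factors, unscaled library sizes, other filters, DESeq2 1.42.0, limma 3.58.1 with voom quality weights (the pipeline of the study), gene length offsets, fits of only the groups compared, and omission of mice. Single values and ratios were compared by exact two-sided permutation of log2 values. The fit was also run on simulated data, the outcome of which is not given here. Named genes were the members, the 3 genes with the pattern most similar to each member past the F test, and in each pathway list up to 4 genes called between genotypes in at least 2 conditions and up to 3 called between GF and SPF 5xFAD mice. The members and lists were chosen with earlier results of these data known. Some listed genes are not reported here and were left out of the lists, their counts and their sums. Promoter sequences are from RefSeq (GRCm38.p6), which held all 5 members.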

Additional observations from a re-analysis of the deposited data

Results flagged for a closer look

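Each TAM gene except Tyro3 was screened for a mouse that stood apart from its own group, over 20 groups of 4 to 6 mice, by the gap between the highest or lowest mouse and its neighbour relative to the whole range (Dixon's criterion at 95%). Chance flags about 1 in 20 groups, and 3 of 20 were flagged, all in ABX 5xFAD mice. Mouse FAD_ABX_1460 stood out for Axl, at 763.4 CPM with 524 CPM as the next value, and for Gas6, at 485.8 CPM with 365 CPM as the next. Mouse FAD_ABX_1482 had the lowest Pros1, at 696.4 CPM, where the next mouse had 965 CPM. Without mouse FAD_ABX_1460 the genotype differences of Axl and Gas6 in ABX mice still passed the threshold of the edgeR fit.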

How the results depend on the processing

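The genotype difference of Axl kept its direction and passed the threshold in all 37 other analyses under each condition, as did that of Gas6 in ABX mice. With GF and ABX 5xFAD mice, where no TAM gene passed in the main analysis, 1 passed with RLE factors, without a filter, with DESeq2, with gene length offsets or over 26 mice (without FAD_ABX_1151 and FAD_ABX_1482), and 2 passed with unscaled library sizes, with at least 10 counts in every library or with limma (0 to 2 when 1 mouse was left out). These were Axl without a filter and with length offsets, Mertk with RLE factors, DESeq2 and 26 mice, both with limma and with at least 10 counts, and Mertk and Gas6 with unscaled library sizes. In GF 5xFAD against GF WT mice 1 of the 2 remained past the threshold when only these groups were fitted (1 to 2 without 1 mouse). GF against SPF 5xFAD mice gave 2 with limma, Axl and Mertk, and 1 with only the groups fitted, which was Axl in place of Mertk (0 to 1 without 1 mouse), SPF 5xFAD against SPF WT mice 2 with limma and 2 with only the groups fitted, and GF against ABX WT mice 0 to 1 without 1 mouse. The cause of these changes was not tested.

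Contrasts in which a value turned its sign lay between -0.338 and 0.112 (log2) over all analyses and never passed the threshold. Axl in ABX against SPF 5xFAD mice became 0.0272 over 26 mice and ranged from -0.169 to 0.0345 without 1 mouse, and the Axl effect in GF minus SPF mice ranged from -0.338 to 0.0793. Mertk in ABX 5xFAD against ABX WT mice became -0.0623 with unscaled library sizes and -0.00697 with length offsets (-0.0258 to 0.064 without 1 mouse), and in SPF mice -0.0191 with unscaled library sizes (-0.00324 to 0.0887). The sign also turned in 3 contrasts of Gas6, which lay between -0.107 and 0.0558, and in 5 of Mertk, these included, between -0.083 and 0.112. The contrasts of Pros1, of which 10 changed sign, stayed between -0.132 and 0.0926 in all analyses, and none passed. The F test of all groups, whose alternatives were chosen after the data were seen, passed 2 to 3 TAM genes when 1 mouse was left out. The gene lost was Mertk, in 14 of 28 omissions (adjusted p up to 0.181) and without the filter on low counts (0.0517).

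No paired analysis was possible because the groups share no replicate numbers. Of the genes with the most similar pattern, all 3 were again among the top for Axl over 26 mice, and 2 of 3 each for Mertk and Gas6. Depth limits Tyro3, and the 3 SPF 5xFAD mice limit every comparison that uses them.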
